A study of Mus musculus with 2 samples.

Results

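The genes described here are the inhibitors of cyclin-dependent kinases (CDKs) and a small set of genes around the tumor suppressor p53, followed in a profile of H3K9ac, an acetylation of histone H3 found at active promoters and enhancers. They were chosen by name: Cdkn1a, Cdkn1b, Cdkn2a, Cdkn2b, Cdkn2c, Cdkn2d, Mdm2, Trp53, Trp53inp1 and Ccng1, with every row of the authors' deposited region table assigned to one of them. Of these 10 genes, 7 had at least 1 region, and they had 9 of the 20615 regions in all; Cdkn2c, Cdkn2d and Trp53 had no row among those analysed here. The cells came from leukemic spleens of mice that all carried the NUP98/HOXD13 fusion, a driver of myelodysplasia and acute leukemia, and a human GFI1 cDNA. In the first genotype, Gfi1 36N/N, the cDNA encoded the variant of this transcriptional repressor with asparagine at residue 36, and in the second, Gfi1 36S/S, the common form with serine there. What limits the model is only partly known: the labels give neither the age of the mice nor how many were used, nor the promoter that drives the fusion, and with a single library of each genotype there are no replicates to test against, so p-values are left out. In cells taken as a bulk, fewer cells that carry the mark and less of the mark per cell cannot be told apart.

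CDK inhibitors hold back the kinases that drive cells from growth into DNA replication. The Cip/Kip proteins p21 (Cdkn1a) and p27 (Cdkn1b) bind complexes of cyclins with CDKs, and the INK4 proteins p15 (Cdkn2b), p16 (one product of Cdkn2a), p18 (Cdkn2c) and p19 (Cdkn2d) bind CDK4 and CDK6 so that cyclin D cannot. The Cdkn2a gene also makes ARF from another first exon, and ARF blocks MDM2, the ubiquitin ligase that degrades p53. p53 in turn switches on Cdkn1a, Mdm2, Ccng1 (cyclin G1) and Trp53inp1, a nuclear protein of the stress response. In blood p53 and several of the CDK inhibitors restrain the expansion of stem and progenitor cells, and leukemias often silence or lose some of them.

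The deposited values tell which of the annotated starts of these genes lay in an H3K9ac region, so the promoter windows of the genes in question are shown first. The windows run from 250 bases before to 50 bases after a RefSeq start (build GRCm38.p6) and are written in the direction of transcription. Capitals mark 2 motifs: the p53 decamer (one unit of a p53 response element, whose consensus reads alike on both strands) and the GC box, GGGCGG on either strand. The upstream start of Cdkn2a is that of the ARF transcript and the downstream start that of the p16 transcript; both starts of Cdkn2a and of Cdkn1a are printed because only 1 of the 2 lay in a region. Mdm2 and Ccng1 are shown as p53 targets whose covered window holds a decamer.
Cdkn2a upstream start, chr4:89294570-89294869, minus strand: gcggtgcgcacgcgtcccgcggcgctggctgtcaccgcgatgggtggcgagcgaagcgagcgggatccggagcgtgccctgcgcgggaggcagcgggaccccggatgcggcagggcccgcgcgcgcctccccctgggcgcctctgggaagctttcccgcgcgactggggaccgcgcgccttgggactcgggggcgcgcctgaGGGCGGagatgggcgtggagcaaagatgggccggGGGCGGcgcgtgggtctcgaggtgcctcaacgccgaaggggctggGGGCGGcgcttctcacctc
Cdkn2a downstream start, chr4:89282143-89282442, minus strand: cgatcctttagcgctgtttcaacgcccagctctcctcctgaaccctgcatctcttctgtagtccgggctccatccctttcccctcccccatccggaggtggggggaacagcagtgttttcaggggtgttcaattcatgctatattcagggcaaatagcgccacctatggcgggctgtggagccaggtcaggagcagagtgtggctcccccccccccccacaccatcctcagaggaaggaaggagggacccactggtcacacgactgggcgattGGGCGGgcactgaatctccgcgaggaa
Cdkn1a upstream start, chr17:29090729-29091028, plus strand: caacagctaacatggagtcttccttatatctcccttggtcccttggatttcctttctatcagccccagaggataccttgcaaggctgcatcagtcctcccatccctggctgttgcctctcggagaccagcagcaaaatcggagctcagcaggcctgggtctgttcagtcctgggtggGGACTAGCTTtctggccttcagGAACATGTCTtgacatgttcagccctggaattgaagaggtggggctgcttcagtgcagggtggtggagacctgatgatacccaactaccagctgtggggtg
Cdkn1a downstream start, chr17:29093519-29093818, plus strand: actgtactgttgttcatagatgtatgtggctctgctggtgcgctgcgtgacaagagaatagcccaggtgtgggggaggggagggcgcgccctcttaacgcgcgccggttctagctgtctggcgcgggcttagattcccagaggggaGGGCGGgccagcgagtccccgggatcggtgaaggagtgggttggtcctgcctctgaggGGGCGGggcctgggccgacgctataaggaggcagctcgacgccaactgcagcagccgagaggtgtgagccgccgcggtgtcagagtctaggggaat
Mdm2, chr10:117710709-117711008, minus strand: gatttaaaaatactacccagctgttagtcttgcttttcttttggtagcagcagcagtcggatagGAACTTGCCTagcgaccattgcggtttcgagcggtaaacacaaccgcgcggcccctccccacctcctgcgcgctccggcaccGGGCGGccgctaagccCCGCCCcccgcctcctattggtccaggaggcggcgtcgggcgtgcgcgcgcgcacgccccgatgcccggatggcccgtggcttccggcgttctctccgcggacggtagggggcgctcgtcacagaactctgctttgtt
Ccng1, chr11:40755237-40755536, minus strand: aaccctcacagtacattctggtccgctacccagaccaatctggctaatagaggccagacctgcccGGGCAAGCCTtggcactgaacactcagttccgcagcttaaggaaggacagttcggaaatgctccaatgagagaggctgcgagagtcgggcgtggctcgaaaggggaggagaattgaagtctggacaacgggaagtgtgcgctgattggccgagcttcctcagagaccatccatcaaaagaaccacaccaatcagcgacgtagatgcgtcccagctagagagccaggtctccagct

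The start that lay in a region was the one with more CpG in both genes. The ARF window of Cdkn2a held 45 CpG dinucleotides and 3 GC boxes, and its start was inside the region at chr4:89293951-89296500. The p16 window held 12 CpG and 1 GC box, and its start was 11759 bp from that region, the nearest one. In Cdkn1a the downstream start, with 23 CpG and 2 GC boxes, was inside the region at chr17:29093101-29096400. The upstream start, with 2 CpG, 2 p53 decamers (GGACTAGCTT and GAACATGTCT, beginning at −73 and −51 from the start) and no GC box, was 2122 bp outside it. The reads given to Cdkn2a thus lay over the ARF start and those given to Cdkn1a over the downstream start, and the other starts of both genes, 12427 and 2790 bp away, carried no region among those analysed here.

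Among all members, 12 promoter windows of 9 genes could be placed (Trp53inp1 was not among them), and 6 of them overlapped a region. The covered windows were the ones of Cdkn2a (ARF), Cdkn1a (downstream), Cdkn1b with 30 CpG, Cdkn2b with 18, Mdm2 with 35 and Ccng1 with 14. Those not covered included the 2 windows of Cdkn2c, with 33 and 8 CpG, that of Cdkn2d with 22 and that of Trp53 with 10, so CpG number did not separate the groups. Over all 32851 RefSeq windows, 35.1% overlapped a region, 67.9% of the windows with 10 or more CpG and 9.78% of the rest. A GC box was found in 35.7% of all windows and a p53 decamer in 8.36%; of windows with a decamer 27.1% overlapped a region, against 35.8% of those without. A match is a string of letters and says nothing of binding in these cells.

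**Figure D1:**
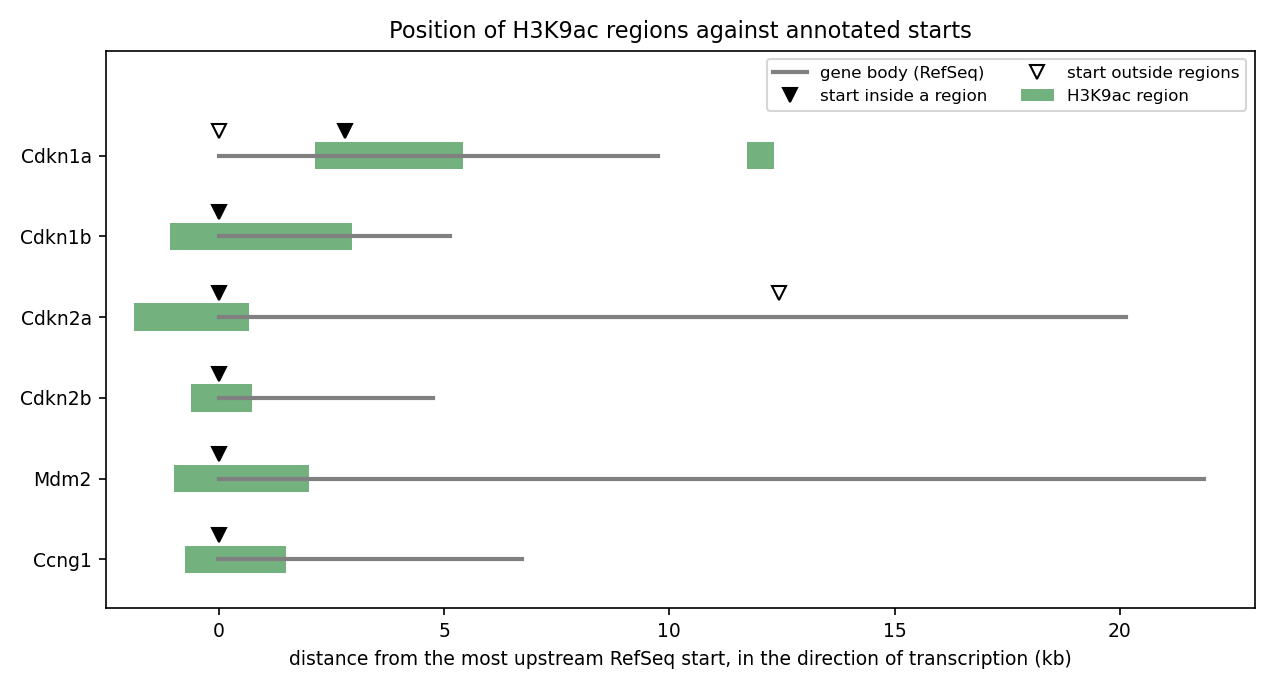
H3K9ac regions (green) of 6 member genes drawn to scale against RefSeq starts (triangles) and gene bodies (grey lines), in kb from the most upstream start in the direction of transcription. The filled triangles lie inside a region; the upstream start of Cdkn1a, 2122 bp outside, and the downstream (p16) start of Cdkn2a, 11759 bp away, are open.

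Regions near the genes without a row differed in sign. The nearest region to Trp53, which encodes p53 itself, lay 11278 bp past its end, was assigned to Atp1b2 and held 195 reads in the 36N library and 716 in the 36S library. On the other side of Trp53 the nearest region was 32848 bp away and held 83 reads in 36N and 37 in 36S. For Cdkn2c the nearest, 2476 bp away and assigned to the predicted gene Gm12811, held 209 reads in 36N and 155 in 36S, a difference of 0.46 (95% interval 0.15 to 0.77). For Cdkn2d the closest was 17280 bp away at Ap1m2, with 60 reads in 36N and 125 in 36S. None of these reads can be credited to the 3 genes, and the levels of p53, p18 and p19 genes were not measured here.

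As deposited, all 7 measured genes carried less H3K9ac at their strongest region in the 36N library than in the 36S library. So did 9047 of all 12553 genes. Cdkn1b and Ccng1 lay slightly above 0 once the level of a region was taken into account. Differences are 36N minus 36S on the log2 scale of the deposited read values, and each 95% interval is the exact conditional interval of the 2 read numbers, which covers counting error only. By a rule of size, a change of at least 1 log2 unit, or 2-fold, 4 of the 7 genes were lower in 36N (Cdkn2a, Cdkn1a, Trp53inp1 and Cdkn2b) and none was higher. Over all 12553 genes 12.6% were lower by that much and 7.37% higher, and of the 8745 genes whose level reached the median region, as that of all 7 did, 14.3% were lower and 1.69% higher. The members' median was −1.04, beside −0.53 for all genes and −0.66 for genes at or above the median level. Counted by region, 5 of the 9 were lower by the rule and none higher, beside 14.1% and 7.49% of all regions. Closest to the limit were Cdkn2b at −1.04, inside, and Mdm2 at −0.98, outside.

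Part of this was shared by strong regions in general, which were lower in 36N. The difference fell with the mean level of a region along a lowess trend, to about −0.74 at the level of Cdkn1a, Cdkn1b, Mdm2 and the Trp53inp1 start. After subtraction of that trend, called level-adjusted here, only Cdkn2a was lower by 1 log2 unit or more, where 4.28% of all genes were (8.66% were higher); Cdkn1b was then at 0.08, Ccng1 at 0.02 and the members' median at −0.38.

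**Figure D2:**
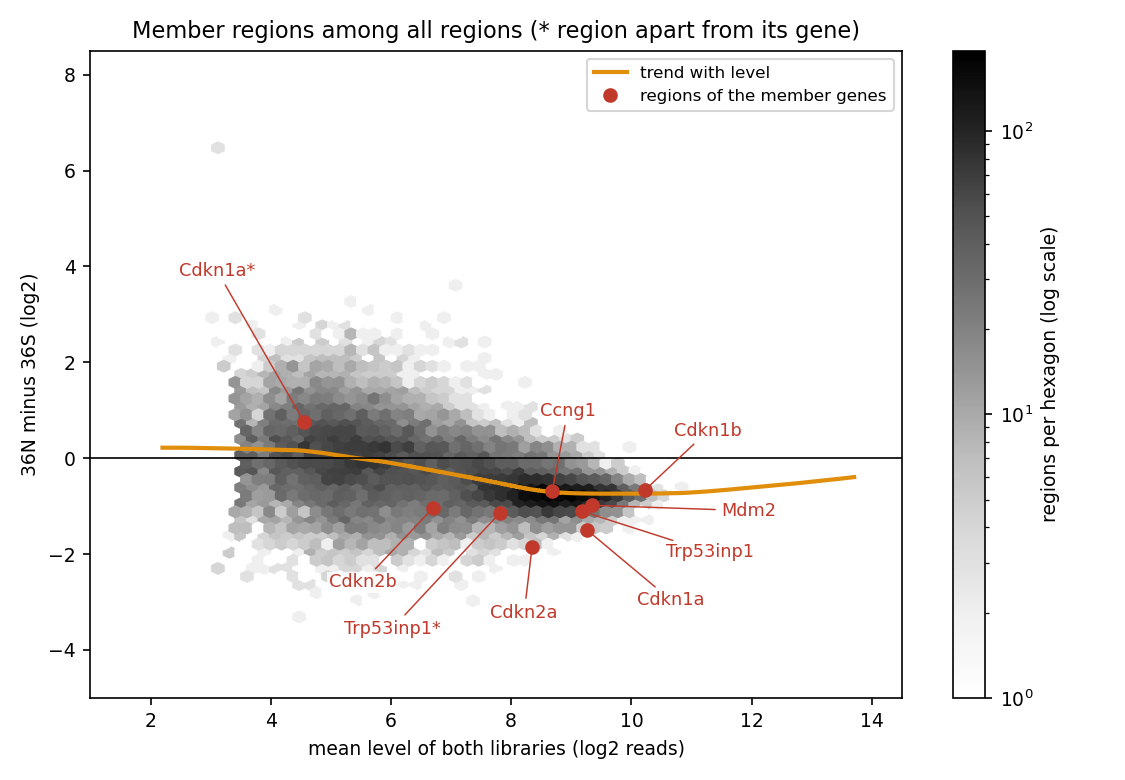
Difference between the libraries (36N minus 36S, log2) against the mean level (log2 reads) for all 20615 regions (grey hexagons, darker for more regions), with the 9 member regions in red and the trend with level in orange. Cdkn2a and Cdkn1a lie below the trend, at −1.86 and −1.50, while Cdkn1b and Ccng1 lie on it.

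Cdkn1a and Cdkn1b, the Cip/Kip inhibitors, differed from each other. The Cdkn1a region held 359 reads in the 36N library and 1036 in the 36S library, a difference of −1.50 (−1.68 to −1.33), or 2.83-fold lower in 36N. The Cdkn1b region (chr6:134919301-134923350), over the start of the p27 gene, held 937 reads in 36N and 1509 in 36S, a difference of −0.66 (−0.78 to −0.54). The p27 gene had the strongest region of the group in both libraries and moved with the trend (level-adjusted 0.08), whereas that of p21 lay below it (−0.76). Cdkn1a minus Cdkn1b was −0.84 (counting interval −1.05 to −0.63), and the same −0.84 after adjustment for level.

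A second, weak region of Cdkn1a went the other way without passing counting error. It lies 1979 bp past the end of the gene (chr17:29102701-29103300), overlaps no RefSeq gene, and held 30 reads in 36N and 18 in 36S, 0.76 apart (−0.13 to 1.69). As deposited, no difference from 0 was detectable there at this depth. The difference depended on the scaling: 1.16 when centred on the median region, 1.34 when scaled to reads in regions and 0.61 level-adjusted.

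Cdkn2a was the lowest of the group. Its region, over the ARF start, held 168 reads in the 36N library and 620 in the 36S library, a difference of −1.86 (−2.11 to −1.61), or 3.62-fold lower in 36N. Only 1.70% of all regions had a difference as low. The level-adjusted difference was −1.20, with 5.68% of regions as low. Cdkn2b, the p15 gene next to it (chr4:89310301-89311650), was far weaker, with 71 reads in 36N and 149 in 36S, a difference of −1.04 (−1.47 to −0.63) and a level-adjusted one of −0.78. Cdkn2a minus Cdkn2b was −0.81 (−1.29 to −0.34), of which −0.42 remained after adjustment for level. Both regions also overlap the long predicted gene Gm12610 in RefSeq, and reads from overlapping genes cannot be assigned to one of them.

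Of Mdm2 and Ccng1, p53 targets with a decamer in the covered window, Ccng1 lay on the trend and Mdm2 somewhat below it. The Mdm2 region (chr10:117708751-117711750) held 453 reads in 36N and 912 in 36S, a difference of −0.98 (−1.15 to −0.82), and −0.24 after adjustment for level. Ccng1 (chr11:40753801-40756050) had 319 reads in 36N and 521 in 36S, a difference of −0.68 (−0.89 to −0.48), and 0.02 after adjustment. Their decamers, GAACTTGCCT and GGGCAAGCCT, begin at −186 and −185 from the start.

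Trp53inp1 had 2 regions, both lower in 36N by about the same amount. The region at the gene's lower end (chr4:11155351-11157750) held 389 reads in 36N and 856 in 36S, a difference of −1.11 (−1.29 to −0.94). The other (chr4:11146351-11148300) overlaps no RefSeq gene and held 149 reads in 36N and 334 in 36S, a difference of −1.14 (−1.43 to −0.86). Level-adjusted differences were −0.38 and −0.61. The deposited table calls this second region downstream at a distance of 8131 bp, but its orientation words give the side of the gene as seen from the region: of 1136 regions called downstream that lie outside their gene in RefSeq, 1134 lie before the gene's start, and of 1156 called upstream, 1153 lie past its end. The region thus lies on the side of the Trp53inp1 start.

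**Figure D3:**
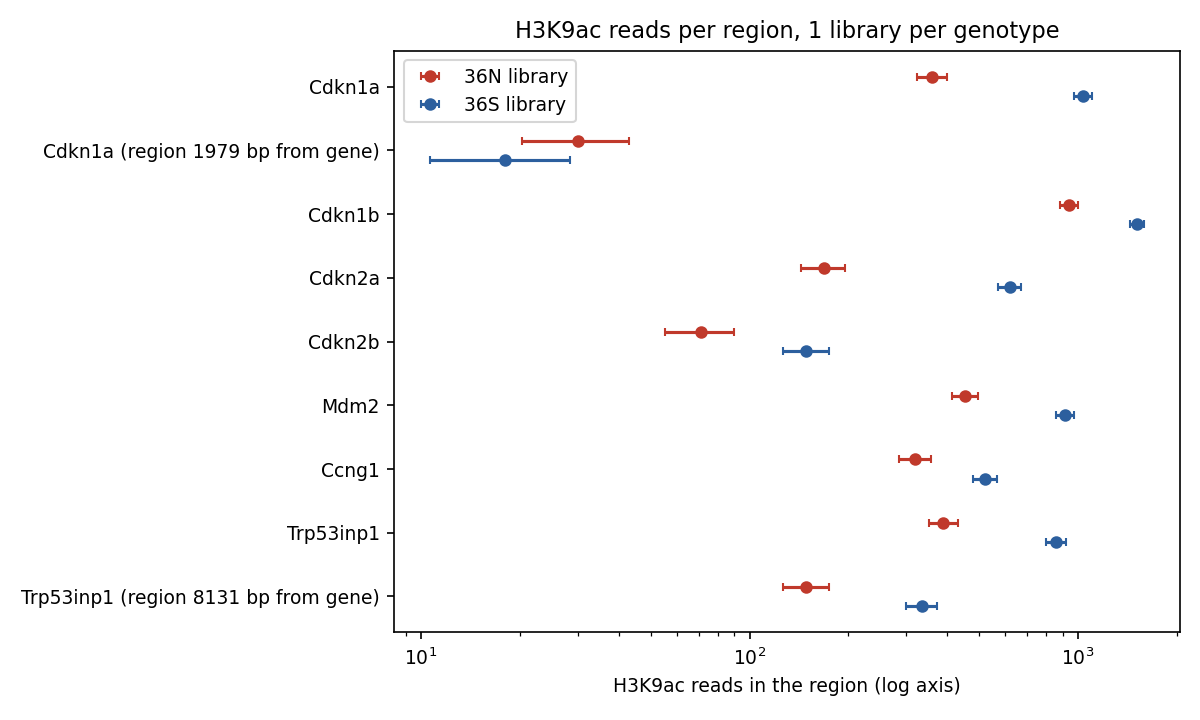
H3K9ac reads (log axis) in the 9 member regions, 36N in red above 36S in blue, with exact Poisson 95% intervals for counting error. The 36N point is to the left in 8 of the 9 regions; in the weak region past the end of Cdkn1a, with 30 reads in 36N and 18 in 36S, the bars overlap.

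**Figure D4:**
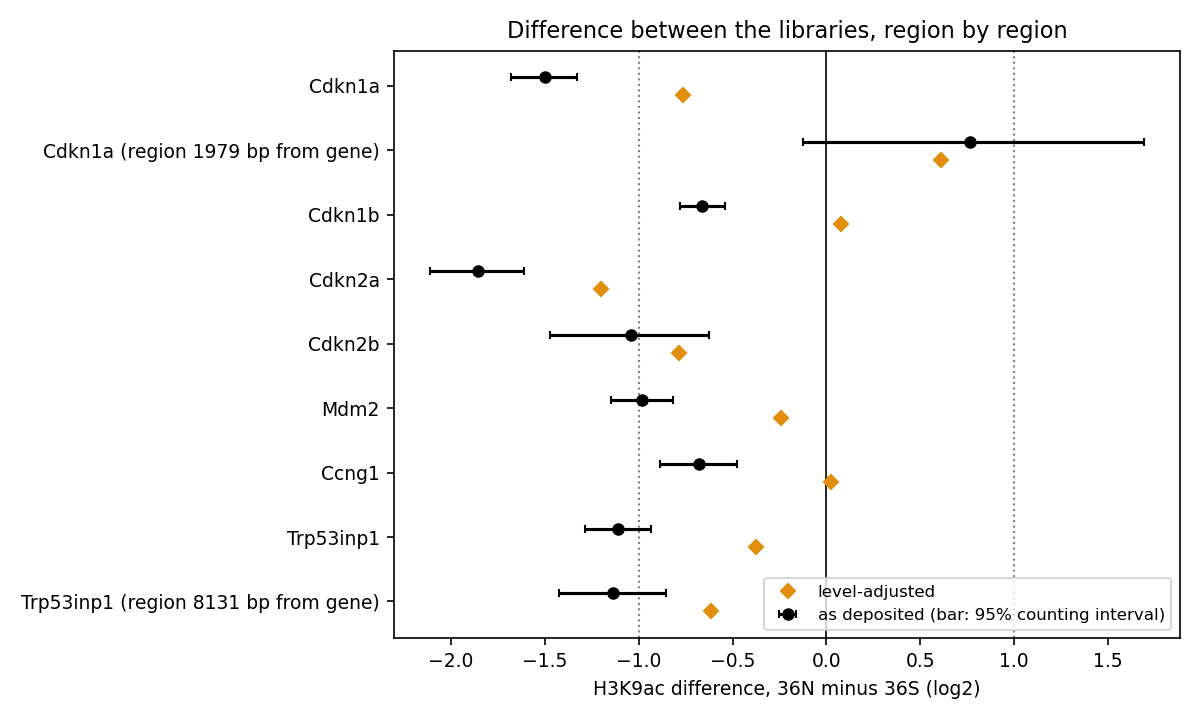
Difference of each member region (36N minus 36S, log2), as deposited with its 95% counting interval (black) and level-adjusted (orange); dotted lines mark the size rule of 1 log2 unit. Cdkn2a alone stays past −1 after adjustment, at −1.20.

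Read for length, the order of the genes differed between the libraries, most visibly in the places of Cdkn1a and Cdkn2a. In the 36N library Cdkn1b was highest at 236 reads per kb of region, above Trp53inp1 at 165, Mdm2 at 154 and Ccng1 at 144, whose neighbouring intervals overlapped. Cdkn1a followed at 111 (99.6 to 123), and Cdkn2a at 67.1 and Cdkn2b at 53.6 came last, with overlapping intervals. In the 36S library Cdkn1b at 373 and Trp53inp1 at 357 overlapped, as did Cdkn1a at 314 and Mdm2 at 304. The intervals of Trp53inp1 (333 to 381) and Cdkn1a (295 to 334) also just overlapped. Cdkn2a at 243 and Ccng1 at 232 overlapped too, and Cdkn2b was lowest at 110. So Cdkn2a stood beside Ccng1 in 36S and beside Cdkn2b in 36N. Of the 21 pairs of genes, 15 had a difference between their differences, as deposited, whose counting interval left out 0. There was no adjustment for the number of pairs, and pairs that share a gene are not independent. The share over pairs of all genes was not counted, so the 15 have no background to be read against. Mdm2 minus Trp53inp1, at 0.13 (−0.11 to 0.37), was among the other 6.

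Further regions lower by the rule lay near Cdkn2a, Cdkn1a and Cdkn1b; over all regions the share was 14.1%. Within 100 kb of the Cdkn2a region the only 2 regions outside the listed genes lie in Gm12610, with 31 reads in 36N and 117 in 36S (−1.89) and with 19 reads in 36N and 52 in 36S (−1.43, −2.27 to −0.64). Mtap, the gene on the other side of Cdkn2a, had 0.14 (−0.14 to 0.41) in its region, which lies outside this window. Around Cdkn1a, 3 of 9 other regions were lower by the rule. Of these, 2 overlap Trp53cor1 in RefSeq, the gene of lincRNA-p21, a long noncoding RNA that p53 induces in the mouse. The stronger one (chr17:29077801-29079750) held 90 reads in 36N and 340 in 36S, a difference of −1.89 (−2.24 to −1.55), and the weaker 11 in 36N and 44 in 36S (−1.97, −3.08 to −1.0). Stk38, at the far end of the same window, was at −0.73, on the trend. Around Cdkn1b, itself at −0.66, 2 of 6 regions were lower by the rule, with a median of −0.87 over the 6, beside −0.81 over the 9 around Cdkn1a. Around Mdm2 and Trp53inp1 the counts were 0 of 5 and 0 of 4. Trp53cor1 and Stk38 were named after their values were seen.

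Other p53 targets had a median between that of the members and that of all genes. Of 40 further targets 33 were measured, with a median of −0.80; 7 passed the rule downwards and 1 upwards, beside 12.6% and 7.37% of all genes. Dyrk3, a kinase gene, was the lowest, with 69 reads in 36N and 235 in 36S (−1.74, −2.15 to −1.35), through a region 1141 bp from the gene. Ddit4, an inhibitor of mTOR signalling, was at −1.35 (−1.53 to −1.16). Plk2, a polo-like kinase gene, had 133 reads in 36N and 58 in 36S (1.22, 0.77 to 1.69), and the death receptor gene Fas was at 0.98 (0.59 to 1.38). After adjustment for level the median was −0.11, with 2 lower and 2 higher by the rule, beside 4.28% and 8.66% of all genes.

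Regulators of p53 lay on both sides of the trend with level, and most of those of the Ink4-Arf locus above it. All 14 measured of 22 regulators of p53 were below 0 as deposited, as were 9047 of all 12553 genes, and 3 of the 14 were lower by the rule, beside 12.6% of all genes. After adjustment for level 7 were below 0 and 7 above, with a median of 0.0014. The lowest were Rpl5 and Rpl11, ribosomal proteins that bind MDM2, at −1.10 and −1.09; the highest were the acetyltransferase genes Kat5 at −0.25 (−0.50 to −0.01) and Crebbp at −0.45 (−0.58 to −0.32). Of 18 regulators and neighbours of the Ink4-Arf locus 12 were measured, with a median of −0.44 as deposited and 0.30 after adjustment. After adjustment 10 of the 12 lay above 0, beside 6502 of all 12553 genes. Cbx7, a Polycomb protein that represses the locus, had 151 reads in 36N and 446 in 36S (−1.54, −1.81 to −1.27), and was the only one of the 12 past the rule. It lies on chromosome 15, where 43.5% of regions were lower by the rule. Suz12, of the Polycomb methyltransferase complex, was at −0.94, and the transcription factor genes Ets2 and Tbx2 stood at 0.20 (0.01 to 0.39) and 0.81 (0.28 to 1.36). The Tbx2 value came from a region 1403 bp from the gene, with 81 reads in 36N and 47 in 36S.

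Most of the kinases, cyclins and related genes on which the inhibitors act were below 0 as deposited and below the trend. Of 15 genes 13 were measured, with a median of −0.89 as deposited and −0.18 after adjustment; 5 passed the rule of size downwards and none upwards, beside 12.6% and 7.37% of all genes, or 14.3% and 1.69% of genes at or above the median level, where 12 of the 13 lay. After adjustment for level none of the 13 passed the rule in either direction, beside 4.28% of all genes lower and 8.66% higher. As deposited 11 were below 0 and 2 above, and after adjustment 9 were below and 4 above. Of all 12553 genes 9047 were below 0 as deposited and 6051 after adjustment. Skp2, which marks p27 for degradation and lies on chromosome 15, was at −1.32 (−1.50 to −1.14), while the cyclin D3 gene Ccnd3 stood at −1.26 (−1.51 to −1.02). Rb1, the retinoblastoma gene, was at 0.29 (0.07 to 0.51), with 368 reads in 36N and 307 in 36S, and Cdk6 at −0.21 (−0.55 to 0.12). Ccne1, the cyclin E1 gene, named after its value was seen, was at 0.17 through a region 36084 bp away. The remaining CDK inhibitor genes were Cdkn3, a phosphatase that acts on CDKs, with 301 reads in 36N and 562 in 36S (−0.87, −1.08 to −0.67), and Cdkn1c, the p57 gene, with 55 reads in 36N and 62 in 36S in a region 3601 bp away (−0.15, −0.70 to 0.40).

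**Figure D5:**
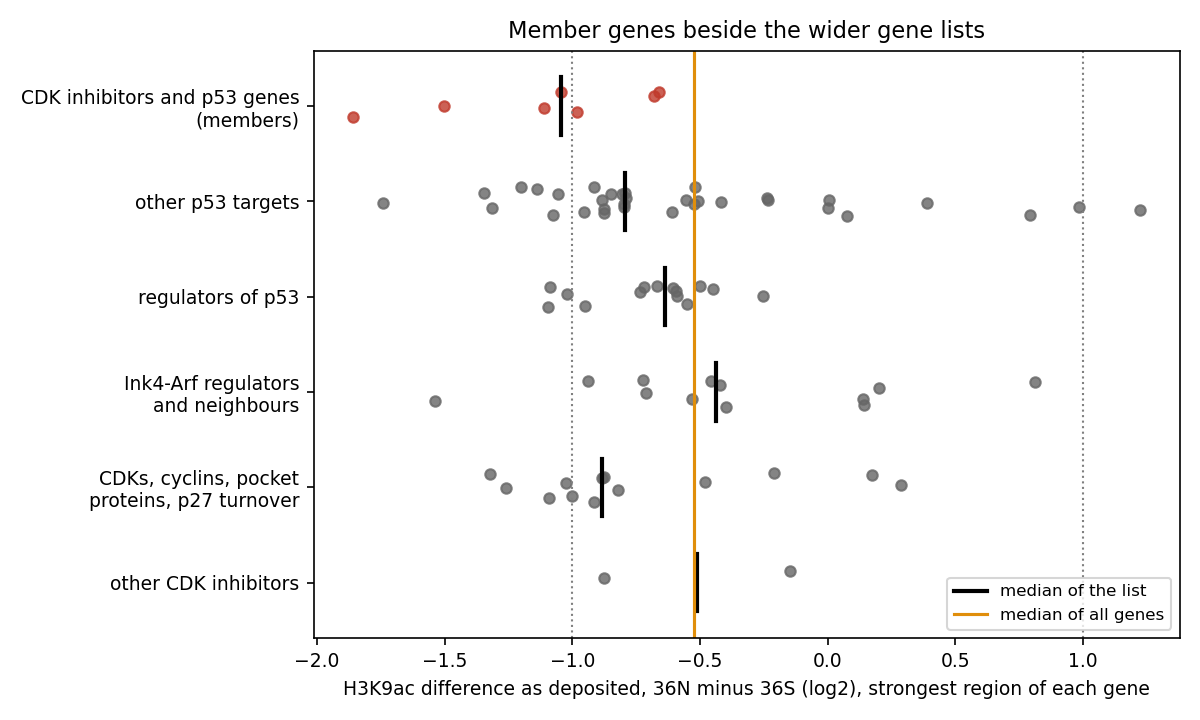
Difference of the strongest region of each measured gene (36N minus 36S, log2, as deposited), by gene list; black bars are list medians and the orange line the median of all genes, −0.53. The members' median is −1.04 and that of the other p53 targets −0.80.

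Markers of other cells also differed between the libraries. Leukocyte markers had a region in 5 of 5 genes, with 1436 reads in 36N and 1641 in 36S and a median of −0.16. Of 12 erythroid markers 8 were measured, 7 of them lower by the rule, beside 12.6% of all genes, with a median of −1.81 and with 1044 reads in 36N and 3539 in 36S; Klf1, Hba-a1, Slc4a1 and Alas2 had no row. Of 7 T cell markers 4 were measured and 3 were lower by the rule, with a median of −1.45 and with 344 reads in 36N and 1054 in 36S; Cd3e, Cd4 and Cd8a had no row. Monocyte markers were at a median of 0.41 (6 of 7 measured) and granulocyte markers at −0.43 (7 of 10). B cell genes stood at −0.11 (1 of 5 measured), NK cell genes at 0.58 (2 of 3), megakaryocyte genes at −1.12 (3 of 5) and endothelial and stromal genes at 0.03 (3 of 4). Both NK cell values came from regions apart from the gene, 44124 bp from Ncr1 and 8736 bp from Klrb1c. So did those of the monocyte markers Ly6c2 (20860 bp) and Ccr2 (20000 bp), of erythroid Tfrc (10170 bp) and of endothelial Cdh5 (9575 bp). Such regions may belong to other genes. Of 3 genes not typical of spleen 1, Gfap, had a region, at −2.06. The part of these cells in the differences at Cdkn2a and Cdkn1a was not tested.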

How the data were processed

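H3K9ac chromatin immunoprecipitation libraries of leukemic spleen cells, 1 per genotype, were analysed; per the labels' protocols, homogenised spleens underwent red cell lysis, fixation with formaldehyde (0.4%) and sonication (20 min). Tools in the submitters' processing notes are STAR 2.5.0c, CASAVA 1.8.2 and SAMtools, with the build mm10 and no role for any. The region caller, the counting and the annotation were not given in the sources used here; input reads were not analysed. The authors deposited 1 log2 value per library and region: 2 to that power was a whole number in 36S (within 0.00223 reads; 13 regions at a floor of 0.9, taken as 0) and a whole multiple of 1.02 in 36N (within 0.00451 reads). Values were not divided by length. Reads in regions numbered 3292869 (36N) and 4989632 (36S), medians 83 and 95 per region; total depth is unknown. STAR was made for spliced RNA reads; its settings for these DNA fragments are unknown.

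Differences of deposited values were used with no pseudocount and with exact intervals (scipy 1.17.1); a lowess trend on autosomes (fraction 0.3, statsmodels 0.14.6) gave level-adjusted values. Intervals and trend were tested on simulated reads with planted changes and counting error only. Variation between animals or libraries was not simulated. A gene was given its region with the highest mean level; 19 regions with symbols turned into dates were left out of genes. RefSeq (GRCm38.p6) gave gene bounds, promoter sequences and older symbols. The members and lists were chosen with earlier results of these data known. Named genes are all members, the 2 highest and 2 lowest of each wider list within 5000 bp of the gene, and both further CDK inhibitors. Windows of 100 kb, motif counts and the comparison of genes in pairs were chosen after seeing the data.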

Additional observations from a re-analysis of the deposited data

How the results depend on the processing

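The count of 4 lower member genes fell to 2 when differences were centred on the median region and to 1 (Cdkn2a) when scaled to reads in regions, adjusted for level or quantile normalized. It was 7 with a size of 1.5-fold or with an interval past 0. Of all 12553 genes, 7314 had an interval below 0, and the share past 1.5-fold was not counted. After adjustment for level 4.28% of all genes were lower by the rule. The shares of all genes under the other scalings, and of all regions under any of them, were not counted. Of the 9 regions, 5 were lower as deposited, against 2, 1, 1 and 1 under these scalings in that order and 8 with the smaller size or the interval. No region was higher as deposited, and 1, past the end of Cdkn1a, was higher when centred, scaled to reads or with the smaller size. The count of lower genes was 4 with reads summed over a gene's regions, the nearest region, RefSeq overlap, the level filter or regions within 5000 bp.

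In the order centred, scaled to reads, level-adjusted and quantile normalized, the median was −0.65, −0.47, −0.38 and −0.38 for the members. It was −0.40, −0.23, −0.11 and −0.12 for all p53 targets (−0.80 as deposited, members included). For regulators of p53 it was −0.24, −0.066, 0.0014 and −0.0084. For the Ink4-Arf list it was −0.042, 0.13, 0.30 and 0.28. For kinases and cyclins it was −0.49, −0.31, −0.18 and −0.19, and for Cdkn1c and Cdkn3 −0.11, 0.063, −0.12 and −0.12 (−0.51 as deposited). The scalings shift all differences: the median region lies at −0.40 and the ratio of reads at −0.57. No region past the rule changed sign under any of them. No paired analysis was possible because each genotype had 1 library, and for the same reason no replicate could be left out. At 30 and 18 reads, in 36N and 36S, depth limits the region past Cdkn1a.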

Other observations

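The p53 decamer was also set against the differences at regions across the genome. The 665 regions that overlap a promoter window with a decamer had a median difference of −0.59 and a level-adjusted one of 0.021, beside −0.59 and 0.028 for 7933 regions over windows without one. Of the regions with a decamer 10.7% were lower in 36N by 1 log2 unit or more and 7.07% higher, against 12.2% and 7.19% of those without. Only 118 of all windows, 0.359%, held 2 or more decamers, as the upstream window of Cdkn1a does, and 22 of these overlapped a region.

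Around Mdm2 the other regions ranged from −0.79 to 1.09. The Cpm region, of a carboxypeptidase gene, had 48 reads in 36N and 23 in 36S (1.09, 0.34 to 1.87), Slc35e3 was at −0.22 (−0.48 to 0.04), and all 5 neighbours within 100 kb lay above Mdm2 at −0.98. Around Trp53inp1 the 4 neighbours lay above its −1.11, from −0.92 at Ints8 to 0.23 at Gm11827. These genes were chosen after their values were seen.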
